A study of Mus musculus with 6 samples.

Results

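The genes described here are the nuclear genes of the mitochondrial ribosomal proteins, followed in whole mouse lung with and without a TGFalpha transgene. Members were taken by name: every row of the deposited count table whose gene identifier maps to a mouse protein-coding symbol beginning with Mrpl or Mrps and a number, with no pseudogenes. This gave 78 genes of 24061 in the table, and all 78 passed the filter on low counts. By current subunit assignment 51 belong to the large subunit and 26 to the small subunit. Mrps30 and Mrps18a, named after the small subunit, sit in the large one. Mrps36 is now assigned to the 2-oxoglutarate dehydrogenase complex of the citric acid cycle and not to the ribosome.

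Messenger RNA was measured by bulk RNA sequencing of lung tissue in 2 groups of 3 libraries. Control lungs were of the genotype CCSP/-, and the compared lungs were CCSP/TGFalpha. The CCSP allele was thus common to both groups, as were 3 weeks of doxycycline. CCSP stands for club cell secretory protein, a gene whose promoter is used to direct transgenes to lung epithelium. TGFalpha is a ligand of the epidermal growth factor receptor. The sources used here give neither age nor whether each library came from its own animal, so the tests weigh differences against library-to-library spread, which may be technical.

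Mitochondria keep their own ribosome, which translates the few proteins encoded by mitochondrial DNA, all of them subunits of the respiratory chain and ATP synthase. Its RNAs come from the mitochondrial genome, and its proteins are encoded in the nucleus, made in the cytosol and imported. Some of these proteins descend from bacterial ribosomal proteins, and others have no bacterial counterpart. Their genes are expressed in nearly all cells, and nuclear respiratory factor 1 (NRF1), the ETS factor GABPA and YY1 are known regulators of such nuclear genes. Genes of the mitochondrial genome were not analysed here.

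The start sites of the members are shown first because many lie beside a gene on the opposite strand, which bears on how counts without a stated strand setting are read. RefSeq promoters (GRCm38.p6, 250 bases before to 50 after the start) were matched for 69 of the 78 genes, with 75 promoters in all. Among these 69 genes, 22 (31.9%) had a protein-coding gene starting within 500 bases on the opposite strand and pointing away, against 7.62% of 17492 protein-coding genes. Mrps12 starts about 145 bases from Sars2, which encodes the mitochondrial seryl-tRNA synthetase, and Mrpl46 starts about 40 bases from Mrps11. The 4 promoters printed are Mrps12 (chr7:28741772-28742071, minus strand), Mrps11 (chr7:78782881-78783180, plus strand), Mrps27 (chr13:99344536-99344835, plus strand) and Mrpl32 (chr13:14612988-14613287, minus strand). Each has a start of another gene close by and holds at least 1 of the 3 motifs searched. Capitals mark GCGCATGC (NRF1), CCGGAAG (GABPA) or AAGATGGC (YY1) on either strand, and overlapping matches run together.
Mrps12: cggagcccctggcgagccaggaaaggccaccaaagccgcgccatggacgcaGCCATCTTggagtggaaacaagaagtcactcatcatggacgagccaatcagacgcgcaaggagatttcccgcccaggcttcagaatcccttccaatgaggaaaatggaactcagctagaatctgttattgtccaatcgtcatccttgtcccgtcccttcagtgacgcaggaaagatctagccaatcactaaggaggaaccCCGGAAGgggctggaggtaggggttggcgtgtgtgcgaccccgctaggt
Mrps11: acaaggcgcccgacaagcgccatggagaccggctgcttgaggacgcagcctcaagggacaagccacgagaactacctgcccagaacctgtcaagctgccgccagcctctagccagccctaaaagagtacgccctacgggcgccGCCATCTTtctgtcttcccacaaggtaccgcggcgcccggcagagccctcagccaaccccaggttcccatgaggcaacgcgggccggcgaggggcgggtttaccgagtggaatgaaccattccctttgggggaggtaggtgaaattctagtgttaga
Mrps27: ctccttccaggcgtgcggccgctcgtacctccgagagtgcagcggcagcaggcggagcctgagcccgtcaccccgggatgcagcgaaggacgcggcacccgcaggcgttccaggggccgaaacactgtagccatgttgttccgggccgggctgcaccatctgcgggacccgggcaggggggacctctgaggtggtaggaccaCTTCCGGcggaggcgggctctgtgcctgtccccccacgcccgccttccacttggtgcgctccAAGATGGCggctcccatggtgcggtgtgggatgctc
Mrpl32: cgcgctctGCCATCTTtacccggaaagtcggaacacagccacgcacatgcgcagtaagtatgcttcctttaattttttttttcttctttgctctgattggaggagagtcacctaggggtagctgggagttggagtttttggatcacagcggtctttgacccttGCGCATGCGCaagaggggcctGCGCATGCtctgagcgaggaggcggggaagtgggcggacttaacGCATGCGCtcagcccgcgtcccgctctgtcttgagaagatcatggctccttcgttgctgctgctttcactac
The GABPA letters were found in 34.7% of the 75 member promoters and in 11.6% of 21263 promoters of protein-coding genes. The YY1 letters were found in 16.0% against 3.05%, and the NRF1 letters in 10.7% against 3.52%. At least 1 of the 3 was present in 50.7% of member promoters and in 16.7% of all. The median GC content was 58.7% for member promoters and 56.3% for all promoters. A match of letters is a description and not a binding site.

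Library totals ran from 21479006 to 24914322 counts. Lung identity was clear in all 6 libraries: the 8 alveolar type 2 markers summed to between 23300 and 37700 CPM (counts divided by the TMM-scaled library size and multiplied by 1000000). The mouse Tgfa gene was at 25.8 ± 2.94 CPM in control lungs and 27.5 ± 2.09 CPM in CCSP/TGFalpha lungs (SD, n = 3; edgeR adjusted p = 0.739), so its row did not check the genotype labels, and how far a transgene would add to that row is not given in the sources used here. Skeletal muscle transcripts set 2 libraries apart. The 14 muscle markers summed to 1850 CPM in control replicate 1 and 3200 CPM in TGFalpha replicate 1, against 56.6 to 73.7 CPM in the other libraries. Of these markers 4 were at 0 in at least 1 library, among them Myh4, a fast muscle myosin, in control replicate 2. The count and median of the members below are also given without these 2 libraries. Other marker lists varied among libraries as well. The 8 macrophage markers summed to 17400 CPM in control replicate 1 and 15300 CPM in TGFalpha replicate 2, against 2240 to 7100 CPM elsewhere. Upk3b, a mesothelium marker, was at 6.57 CPM in control replicate 3 against 83.1 and 83.6 CPM in the other controls.

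No mitochondrial ribosomal protein gene passed the test between CCSP/TGFalpha and control lungs, while the fitted values of most members lay a little above 0, to a large extent through TGFalpha replicate 1. The fitted log2 fold change was positive for 73 of 78 members (93.6%), against 50.9% of the 16089 genes tested, and the median was 0.42 against 0.01. None of the 78 passed a Benjamini-Hochberg adjusted p of 0.05 in edgeR in either direction, where 8.33% of all tested genes passed, 5.03% as higher and 3.29% as lower. The smallest adjusted p of a member was 0.0562. At an unadjusted p under 0.05, 17 members (21.8%) had higher values and none lower, against 14.2% and 12.8% of all tested genes. DESeq2 called 7 members as higher and none as lower, against 8.38% and 7.99% of its genes, and limma-voom called none. In bulk tissue, more transcript per cell and more cells with much of the transcript cannot be told apart.

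The sum over all 78 members in CPM was 1460, 1230 and 1400 for the controls, in replicate order, and 2160, 1600 and 1510 for TGFalpha. The 3 CCSP/TGFalpha libraries were all above the controls, but TGFalpha replicates 2 and 3 lay nearer to control replicate 1 than to TGFalpha replicate 1. The group means were 1360 ± 118 and 1750 ± 352 CPM (SD, n = 3). TGFalpha replicate 1 was the highest of the 6 libraries for 69 members, and control replicate 2 was the lowest for 47. Over all tested genes TGFalpha replicate 1 was the highest library for 26.3% and control replicate 2 the lowest for 18.6%. In TGFalpha replicate 1, 73 members (93.6%) were above all 3 controls, in replicate 2 48 (61.5%) and in replicate 3 31 (39.7%), against 38.1%, 32.5% and 31.6% of all tested genes. For 26 members (33.3%) the groups did not overlap with CCSP/TGFalpha higher, where 17.7% of all tested genes did so, and for none with CCSP/TGFalpha lower, where 15.5% did.

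**Figure D1:**
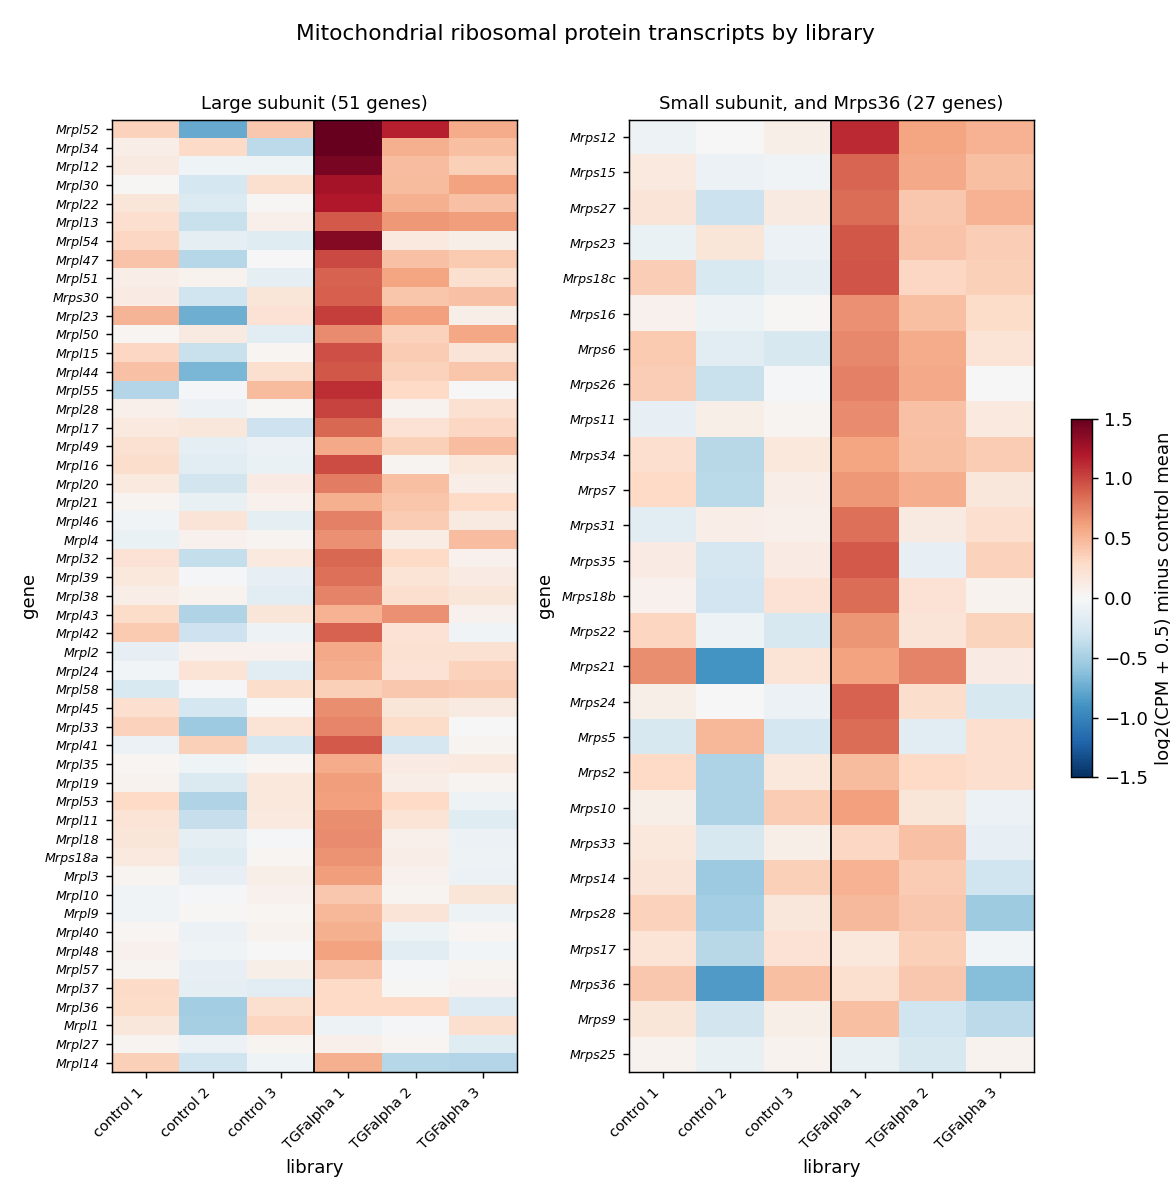
Heat map of the 78 members (rows, ordered by fitted fold change within each panel) in the 6 libraries (columns); colour gives log2(CPM + 0.5) minus the mean of the 3 control libraries, cut at 1.5. The column of TGFalpha replicate 1 is the reddest, being the highest library for 69 members, and control replicate 2 is the lowest for 47.

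Leaving out TGFalpha replicate 1 brought the median log2 fold change of the members from 0.42 to 0.19. The values were then positive for 67 members, and 6 had higher values at an unadjusted p under 0.05, where 10.2% of all genes did. Leaving out replicate 1 of each group, the 2 libraries with muscle transcripts, gave a median of 0.25, with 69 members positive and 5 past an unadjusted p of 0.05, where 9.94% of all genes did. The unadjusted count was also 11 without control replicate 2 and 8 without control replicate 3, where 11.8% and 9.76% of all genes passed. The shares of members in these fits were thus near those of all genes. The remaining single omissions gave larger shares of members than of all genes. Dropping replicate 2 of the TGFalpha group left 20 of the 78 members higher at that p, where 13.4% of all genes were. With its replicate 3 dropped, 21 members were higher, against 13.2% of all genes. The fit lacking the first control had 16 members higher, against 12.7%. No member was lower at that p in any of these fits. Control replicate 1 held muscle transcripts as well, and its member median was 0.15 above the control mean on the log2 scale. The medians were 0.70, 0.30 and 0.15 in TGFalpha replicates 1 to 3 and -0.16 and 0.06 in control replicates 2 and 3. TGFalpha replicate 3 and control replicate 1 thus had the same median.

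**Figure D2:**
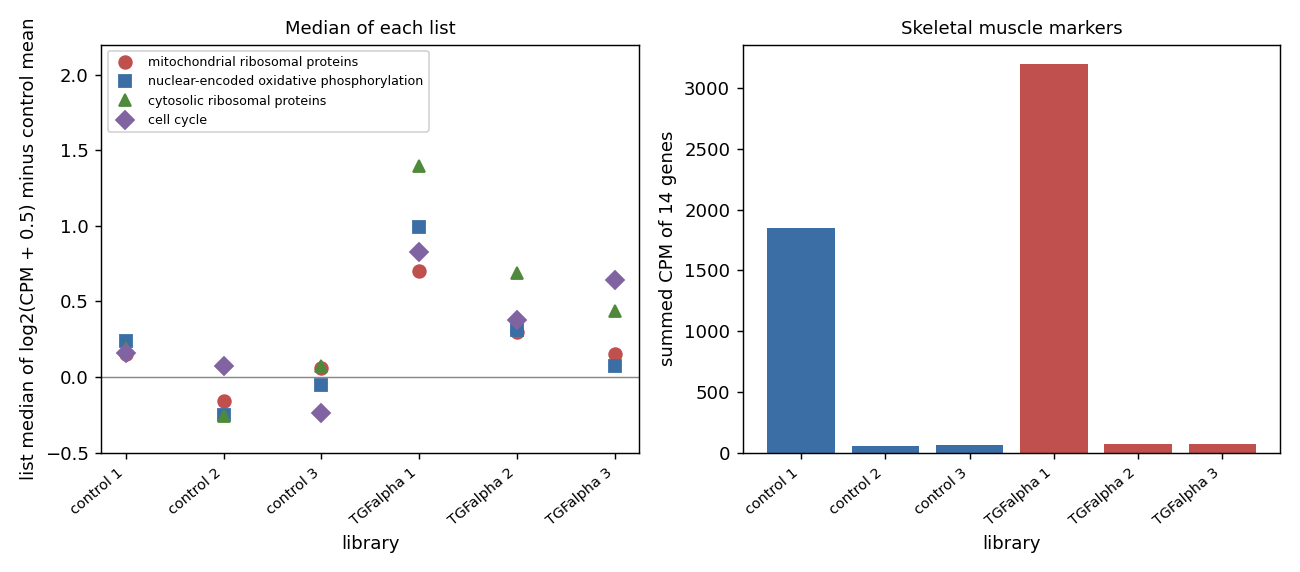
Left, the median over each gene list of log2(CPM + 0.5) minus the control mean, by library; right, the summed CPM of 14 skeletal muscle markers by library. Member medians are 0.70, 0.30 and 0.15 in TGFalpha replicates 1 to 3, while the muscle sum is high in control replicate 1 (1850) and TGFalpha replicate 1 (3200).

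Other gene groups also differed between the groups or among the libraries. For the counts that follow, 5.03% of all tested genes rose in edgeR and 3.29% fell. In the 10 cell cycle genes 4 rose and none fell, and their medians against the control mean were 0.83, 0.38 and 0.64 in TGFalpha replicates 1 to 3, and their lowest library was control replicate 3, at -0.24. Ccnb1, the gene of cyclin B1, had the smallest p of these and rose from 9.18 ± 1.66 to 20.5 ± 2.73 CPM (log2 fold change 1.16 ± 0.20 SE, edgeR adjusted p = 0.0158). Genes with at most 1500 exon bases were also high in TGFalpha replicate 1: the median over 1172 such genes was 0.41, against -0.08 over 10549 genes with more than 3000. The members there were at 0.82 for 20 short members, 0.68 for 27 of middle length and 0.72 for 31 with over 3000 bases. The fibroblast and matrix markers, 6 of 8 of which rose, summed to 6820 to 11600 CPM in CCSP/TGFalpha lungs against 1960 to 2090 CPM in controls, and were highest in TGFalpha replicate 2. Markers that fell included 4 of 8 of endothelium (1040 to 1890 CPM against 2040 to 3690 in controls). Among ciliated cell markers 4 of 8 fell (196 to 225 against 387 to 430). Red cell markers fell in 4 of 7 (7270 to 12800 against 17400 to 39900). Hba-a1 and Hba-a2 had the same CPM in every library, and Hbb-bs and Hbb-bt nearly the same. The rows of each pair are thus not separate measurements, and both are in the sum. Of 8 tested cardiac muscle markers 1 fell, and of 6 mesothelium markers 1 rose and 1 fell. Among alveolar type 1 markers 3 of 8 fell (1780 to 2900 against 3280 to 4970), and among club cell markers 2 of 6 (5410 to 7020 against 9850 to 11800). The alveolar type 1 marker Aqp5 went the other way, at 85.7, 105 and 89.3 CPM in controls and 188, 111 and 191 CPM in CCSP/TGFalpha lungs. The club cell marker Scgb3a1 did so with overlap, at 537, 559 and 267 CPM against 603, 1050 and 440 CPM. The part of muscle, dividing cells, transcript length and cell makeup in the member values was not tested.

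The large and small subunits were set side by side, with no test of the difference between them. The median log2 fold change was 0.42 over 51 large subunit genes, with 49 positive, and 0.43 over 26 small subunit genes, with 24 positive. At an unadjusted p under 0.05, 13 large subunit genes (25.5%) and 4 small subunit genes (15.4%) had higher values, against 14.2% of all tested genes. The small subunit share was thus near that of all genes at this cut. No gene of either subunit was lower at that p, where 12.8% of all tested genes were. The groups did not overlap, with CCSP/TGFalpha higher, for 18 large (35.3%) and 8 small subunit genes (30.8%), against 17.7% of all tested genes. The medians in TGFalpha replicate 2 were 0.22 for the large and 0.39 for the small subunit. Summed CPM of the large subunit ran from 859 to 1010 in controls and from 1060 to 1540 in CCSP/TGFalpha lungs. The small subunit ran from 371 to 444 and from 445 to 611. The ratio of the 2 sums was 2.28, 2.32 and 2.25 over the control libraries and 2.51, 2.30 and 2.37 over the TGFalpha libraries, so the groups overlapped. Genes with a bacterial homologue had a median of 0.40 (45 of 48 positive) and those without one 0.43 (28 of 29 positive).

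Among proteins of the stalk that recruits translation factors, Mrpl12 differed most. Mrpl12, which also binds the mitochondrial RNA polymerase, was at 18.8, 16.3 and 16.3 CPM over control replicates 1 to 3 and 46.6, 23.8 and 22.0 CPM over TGFalpha replicates 1 to 3. The groups did not overlap, but TGFalpha replicate 1 stood far above the rest. Its log2 fold change was 0.85 ± 0.29 (SE; edgeR adjusted p = 0.105) and 0.42 without that library. Mrpl10, which anchors the stalk, was at 41.3 ± 1.85 and 48.1 ± 6.21 CPM (log2 fold change 0.22). Mrpl11, at the stalk base, was at 12 ± 2.43 and 14.5 ± 4.58 CPM (0.27). For both of these the groups overlapped. Mrpl1, of the L1 stalk where spent tRNA leaves, was at 17.0, 10.5 and 19.0 CPM in control lungs and 14.2, 14.9 and 17.9 CPM in CCSP/TGFalpha lungs. It is 1 of the 2 members highest in a control library, and its log2 fold change was 0.01 ± 0.24.

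Around the peptidyl transferase centre and the exit tunnel, values differed from gene to gene. Mrpl22, which lines the tunnel, was at 6.18, 4.63 and 5.47 CPM in control lungs and 13.0, 8.01 and 7.49 CPM in CCSP/TGFalpha lungs, with no overlap (log2 fold change 0.81 ± 0.28, edgeR adjusted p = 0.114). Mrpl4, another tunnel protein, was at 34.7 ± 2.09 and 47.1 ± 9.32 CPM with no overlap (0.44 ± 0.17, adjusted p = 0.15). At the tunnel exit, Mrpl24 had a log2 fold change of 0.37 ± 0.16 with no overlap, Mrpl23 of 0.58 ± 0.40 and the membrane-anchoring Mrpl45 of 0.36 ± 0.22, both with overlap. Mrpl3, near the catalytic centre, was at 49.0 ± 3.75 and 57.8 ± 16.0 CPM, and its log2 fold change of 0.24 became -0.01 without TGFalpha replicate 1. Mrpl44, a protein with a ribonuclease III fold, was low in control replicate 2 at 7.47 CPM against 16.8 and 14.6 CPM in the other controls, and its groups overlapped (0.53 ± 0.31).

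In the central protuberance no member stood out. Mrpl58, a peptidyl-tRNA hydrolase that can rescue stalled ribosomes, had nearly equal values in the CCSP/TGFalpha libraries. Its CPM values were 31.6, 36.4 and 44.5 in controls and 47.8, 49.4 and 48.4 in CCSP/TGFalpha lungs, without overlap. The log2 fold change was 0.37 ± 0.16 (edgeR adjusted p = 0.177) and 0.38 without TGFalpha replicate 1. Mrpl38 had 0.42 ± 0.21 with no overlap and Mrpl46 0.45 ± 0.20 with overlap. Mrpl40 (0.19) and Mrpl48 (0.18) changed sign, to -0.03 and -0.10, without TGFalpha replicate 1.

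Members with the highest fitted fold changes were mostly of low or middling abundance. Mrpl52, a large subunit protein with no bacterial counterpart, was at 6.82, 2.93 and 7.16 CPM in control lungs and 16.6, 12.5 and 8.0 CPM in CCSP/TGFalpha lungs. TGFalpha replicate 3 lay just above control replicate 3, and the log2 fold change was 1.13 ± 0.39 (edgeR adjusted p = 0.111). Mrpl34, of the bacterial-type core, was at 3.37, 3.89 and 2.24 CPM in control lungs and 10.7, 4.72 and 4.4 CPM in CCSP/TGFalpha lungs. Its log2 fold change of 1.06 ± 0.41 was 0.53 without TGFalpha replicate 1, the library that stood out. Mrpl30, of the large subunit, was at 15.2, 12.4 and 17.7 CPM against 36.3, 21.0 and 23.0 CPM (0.82 ± 0.25, adjusted p = 0.0776), with no overlap. Mrps12, the decoding centre protein, was at 2.41, 2.56 and 2.78 CPM against 6.20, 4.15 and 3.93 CPM, also with no overlap (0.88 ± 0.31, adjusted p = 0.111). It was the member with the lowest control mean.

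**Figure D3:**
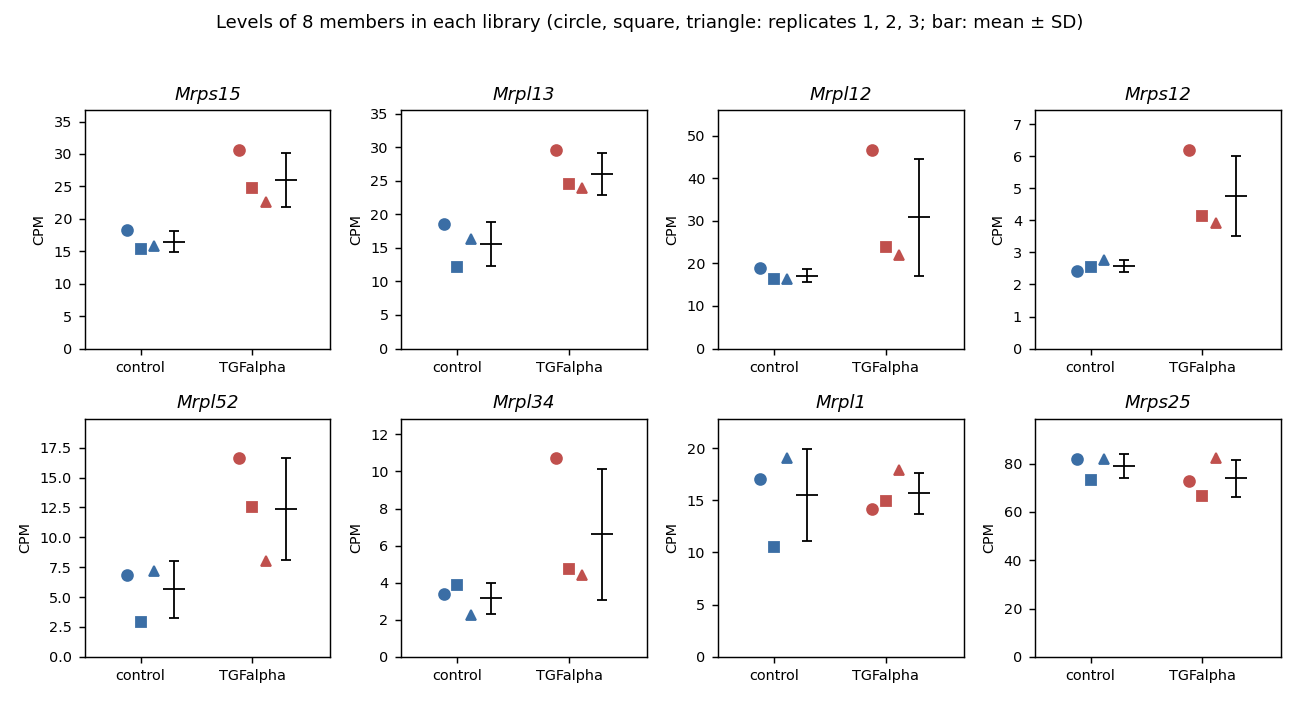
CPM of 8 members in each library (points, with symbol shape for the replicate number) with the mean and SD of each group of 3. Mrps15, Mrpl13, Mrpl12, Mrps12, Mrpl52 and Mrpl34 have no overlap between groups, and TGFalpha replicate 1 is the highest library for each; Mrpl1 and Mrps25 overlap.

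The members with the smallest p were chosen for naming after their values were seen. Mrps15 (gene ID 66407; GRCm38 chromosome 4, 126046928 to 126055536), which binds ribosomal RNA in the small subunit, was at 18.3, 15.4 and 15.8 CPM in control lungs and 30.6, 24.7 and 22.6 CPM in CCSP/TGFalpha lungs. Every CCSP/TGFalpha library was above every control, with a log2 fold change of 0.65 ± 0.17 (edgeR adjusted p = 0.0562). Mrpl13 (gene ID 68537; chromosome 15, 55534095 to 55557312), a bacterial-type large subunit protein, was at 18.5, 12.1 and 16.3 CPM against 29.6, 24.5 and 24.0 CPM. Its log2 fold change was 0.74 ± 0.20 (adjusted p = 0.0573) and stayed between 0.59 and 0.86 with any 1 library left out, against 0.52 to 0.74 for Mrps15. In the DESeq2 fit Mrpl13 and Mrps15 passed, at adjusted p of 0.0181 and 0.0238, together with Mrpl12, Mrpl30, Mrpl50, Mrpl52 and Mrps23. Mrpl50, of the large subunit, was at 25.7 ± 2.72 and 37.6 ± 4.82 CPM with no overlap (0.55 ± 0.16, edgeR adjusted p = 0.0765). No member passed in edgeR when any 1 library was left out.

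In the small subunit the other described members did not pass either. Mrps23, a protein specific to mitochondria, was at 42.9, 52.4 and 43.2 CPM in control lungs and 88.1, 61.9 and 59.4 CPM in CCSP/TGFalpha lungs (0.60 ± 0.19, edgeR adjusted p = 0.0911), with no overlap. At the mRNA entry, Mrps24 had a log2 fold change of 0.39 ± 0.28 and Mrps5 of 0.33 ± 0.30. These fell to 0.04 and 0.01 without TGFalpha replicate 1. Mrps22, of the small subunit, had 0.41 ± 0.26 with overlapping groups, and Mrps30, which sits in the large subunit, 0.60 ± 0.21 without overlap (adjusted p = 0.111). The 3 relatives of bacterial S18, which occupy different places in the ribosome, had 0.27 ± 0.23 (Mrps18a), 0.41 ± 0.28 (Mrps18b) and 0.57 ± 0.27 (Mrps18c). Their groups overlapped, and their order is within these errors.

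At the low end, 5 members had fitted log2 fold changes under 0, none of them past the test. Mrps25, of the small subunit, was at 81.9, 73.3 and 82.0 CPM in control lungs and 72.9, 66.7 and 82.1 CPM in CCSP/TGFalpha lungs (-0.10 ± 0.14, edgeR adjusted p = 0.70). It had the highest control mean in CPM of all members, but 69.8% of its exon bases overlap those of Nr2c2, a nuclear receptor gene at 111 and 91.5 CPM. Mrps36, the member outside the ribosome, was at 7.82, 2.98 and 8.12 CPM in control lungs and 6.92, 7.85 and 3.56 CPM in CCSP/TGFalpha lungs. It was low in control replicate 2 and in TGFalpha replicate 3 (-0.05 ± 0.44). Mrpl14 was at 8.38 ± 2.11 and 8.0 ± 3.52 CPM (-0.07 ± 0.34), Mrps9 at 15.6 ± 2.60 and 15.2 ± 5.31 CPM (-0.05 ± 0.26) and Mrpl27 at 15.3 ± 0.794 and 15.0 ± 1.46 CPM (-0.02 ± 0.16).

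**Figure D4:**
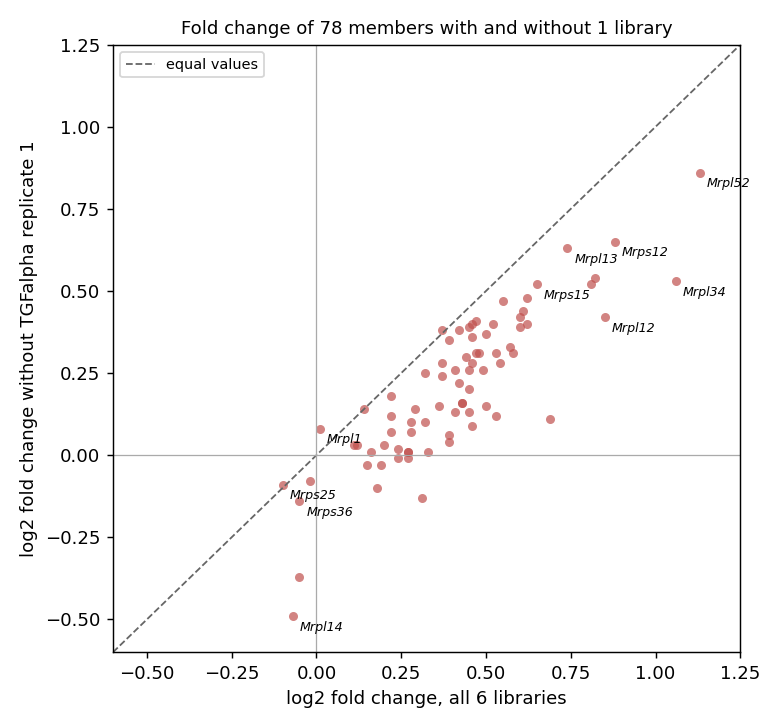
Fitted log2 fold change of each of the 78 members with all 6 libraries (x axis) and without TGFalpha replicate 1 (y axis); the dashed line marks equal values. Most points lie under the line, and the median goes from 0.42 to 0.19.

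Per kilobase of exon, the members spanned a range from 1.26 to 37.2 CPM with a median of 7.22, as means over the 6 libraries. The highest levels per kilobase were those of Mrps23 (37.2), Mrpl10 (26.2) and Mrpl36 (21.5), and the lowest were those of Mrps10 (1.46), Mrpl23 (1.32) and Mrps35 (1.26). Mrpl36, a large subunit protein, was at 24.0 ± 6.87 and 25.9 ± 4.81 CPM. Mrps10 had a log2 fold change of 0.24 ± 0.28 and Mrps35 of 0.45 ± 0.29, both of the small subunit and both with overlap. Exon length was the union over GENCODE transcripts, so a gene with a rare long transcript appears low on this scale.

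Overlap with other genes touched 12 members, in which at least 10% of exon bases lie in exons of another gene. The 66 other members gave a median log2 fold change of 0.43, with 63 positive and none past the edgeR threshold. At an unadjusted p under 0.05, 16 of them (24.2%) had higher values, against 14.2% of all tested genes. DESeq2 called 7 of the 66 as higher, against 8.38% of its genes. The largest shares were those of Mrps34 (77.8%) and Mrps25 (69.8%). Genes that start head to head with a member varied in both directions. Of 20 such partners outside the family, 13 had a positive log2 fold change and none passed in edgeR, with a median of 0.15 against 0.44 for the 22 members, a difference that was not tested. The partner was above its member in 6 cases. Ndufb5, a respiratory complex I gene beside Mrpl47, had 0.84 ± 0.24 against 0.62, and Tcp1, a chaperonin gene beside Mrpl18, had 0.58 ± 0.17 against 0.27. Sars2, beside Mrps12, was at 2.29 ± 0.867 and 3.53 ± 0.50 CPM (0.62 ± 0.37). Ptcd2, beside Mrps27, had 0.44 ± 0.22 and Mrps27 itself 0.62 ± 0.25, without overlap between groups for Mrps27. Psma2, a proteasome gene beside Mrpl32, had 0.28 ± 0.17 and Mrpl32 0.43 ± 0.26. Within the family, Mrpl46 and Mrps11 had 0.45 ± 0.20 and 0.47 ± 0.21.

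The rest of the mitochondrial translation machinery had smaller medians than the ribosomal proteins, a difference that was not tested. The 5 ribosome subunits named otherwise (Dap3, Ptcd3, Chchd1, Aurkaip1 and Gadd45gip1) were all positive (median log2 fold change 0.25), and none passed. Dap3 had the smallest p of these, at 23.2 ± 1.81 and 32.6 ± 5.95 CPM (0.49 ± 0.17, edgeR adjusted p = 0.117). Among 28 genes for ribosome assembly and ribosomal RNA modification 21 were positive, the median was 0.15 and none passed. Ddx28, a helicase of large subunit assembly, was at 4.89 ± 0.381 and 8.14 ± 1.19 CPM (0.73 ± 0.23, adjusted p = 0.0906). Among 15 tested translation factors and mRNA partners 12 were positive with a median of 0.20 and none passed. Tufm, the elongation factor that delivers aminoacyl-tRNA, was at 31.6 ± 3.92 and 46.9 ± 9.27 CPM (0.57 ± 0.18, adjusted p = 0.0922).

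Of 17 mitochondrial aminoacyl-tRNA synthetase genes 1 rose and none fell, where 5.03% of all tested genes rose and 3.29% fell. Their median log2 fold change was 0.26. Vars2, the valyl-tRNA synthetase gene, rose from 11.4 ± 2.28 to 19.7 ± 2.11 CPM (0.78 ± 0.20, edgeR adjusted p = 0.0491). Over all of these smaller mitochondrial lists that was the only call, and the count was 0 with size factors of DESeq2, with library totals, and on leaving out replicate 1 or 3 of the control or replicate 1 or 2 of the TGFalpha group. None of 10 genes for mitochondrial DNA upkeep and transcription passed (median 0.26; Mterf1a 0.58, adjusted p = 0.125), and none of 13 citric acid cycle genes (median 0.25; Suclg1 0.50, adjusted p = 0.214). None of 9 regulators of nuclear genes for mitochondria passed either, with a median of 0.04 (Gabpb1 -0.19, adjusted p = 0.523). The import machinery was nearest to the members: all 24 genes were positive with a median of 0.45, and none passed in edgeR. At an unadjusted p under 0.05, 12 of the 24 (50%) had higher values, against 14.2% of all tested genes. DESeq2 called 4 of them as higher, against 8.38% of its genes. Tomm5, a subunit of the outer membrane translocase, was at 41.4 ± 2.14 and 63.9 ± 15.0 CPM (0.63 ± 0.19, adjusted p = 0.0759). At an unadjusted p under 0.05 the other lists with no edgeR call held 1 ribosome subunit (20%) and 4 assembly genes higher (14.3%) and 1 lower. They also held 1 translation factor (6.67%), 3 genes of DNA upkeep (30%), and no citric acid cycle gene or regulator. Over all tested genes 14.2% were higher and 12.8% lower at that threshold.

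**Figure D5:**
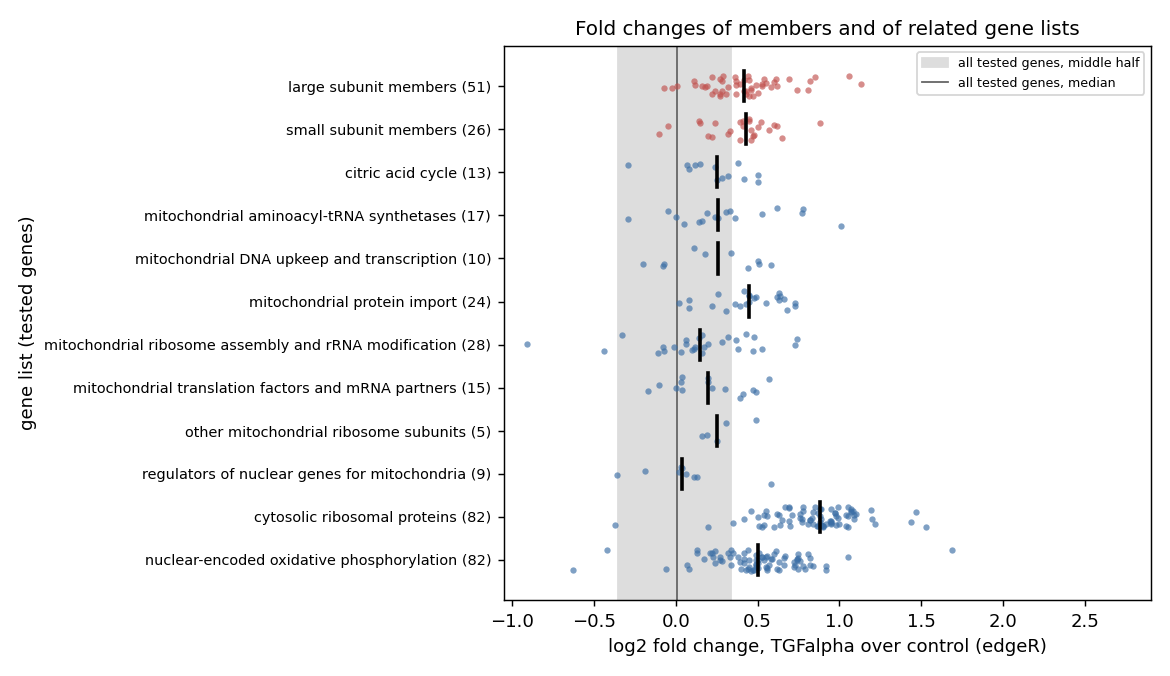
Fitted log2 fold change of each tested gene (points) by list, with the list median as a black bar; the grey band spans the 25th to 75th percentile of all 16089 tested genes. Member medians (0.42 and 0.43) lie right of the band, whose upper edge is 0.34, near the median of protein import (0.45) and under that of cytosolic ribosomal proteins (0.88).

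The cytosolic ribosome and the respiratory chain are the nearest families for comparison. Of 82 tested cytosolic ribosomal protein genes, 25 rose in edgeR and none fell, 81 were positive and the median log2 fold change was 0.88. Rpl36a rose from 126 ± 8.50 to 363 ± 103 CPM (1.53 ± 0.22, adjusted p = 0.00772). Of 82 tested nuclear-encoded oxidative phosphorylation genes, 2 rose and none fell, with a median of 0.50 and 79 positive. Over all tested genes 5.03% rose and 3.29% fell. Atp5g3, an ATP synthase subunit gene, rose from 191 ± 19.7 to 362 ± 83.0 CPM (0.92 ± 0.19, adjusted p = 0.0295). TGFalpha replicate 1 was the highest library for 79 of the cytosolic and 75 of the oxidative phosphorylation genes. Without it 7 cytosolic genes and no oxidative phosphorylation gene rose, and the medians were 0.54 and 0.22. The cytosolic count was 8, 1 and 0 without control replicates 1, 2 and 3, 12 without TGFalpha replicate 2 and 24 without TGFalpha replicate 3. The oxidative phosphorylation count was 1 on leaving out control replicate 1, 3 on leaving out TGFalpha replicate 3 and 0 on leaving out any other library. The difference between these families and the members was not tested.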

How the data were processed

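Mouse lung RNA was made into libraries by Illumina protocols, per the labels. A single table of raw counts, whole numbers per gene with no normalization, was deposited by the authors. The submitters' processing notes name bcl2fastq, CASAVA 1.8, TopHat, DESeq and the build mm10; the counting tool, its strand setting and its handling of reads shared with pseudogenes are not given in the sources used here. Gene identifiers were paired with symbols through RefSeq on GRCm38.p6 (23976 of 24061 rows).

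The test was edgeR 4.0.16 in R 4.3.3: quasi-likelihood F test, TMM scaling, expression filter by group, group as the only term, Benjamini-Hochberg adjustment over 16089 genes, threshold 0.05, 2-sided. Standard errors come from the coefficient and the F statistic. The common biological coefficient of variation was 0.295. The step was tested on simulated counts. Exon lengths came from GENCODE M21. Alternatives were DESeq2 1.42.0, limma-voom (limma 3.58.1), other scalings and filters, a replicate block and left-out libraries.

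The members and lists were chosen with earlier results of these data known. Named members were the 5 highest and 5 lowest fold changes, the 3 highest and 3 lowest levels per kilobase, and those with a listed role. Mrps15, Mrpl13, Mrpl50, Mrps11, Mrps27, Mrpl32, Mrps34, Mrpl47 and Mrpl18 fall outside this rule and were chosen after their values were seen. In each other list the gene with the smallest p was named. The list members Mtrfr and Ly6g were not matched to a row. No libraries were duplicates, with a chi-square per degree of freedom of 48.6 or more within groups.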

Additional observations from a re-analysis of the deposited data

How the results depend on the processing

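No member passed in edgeR with other scalings or filters, or at an adjusted p of 0.01, and none passed with limma-voom. The same held in edgeR with any 1 library left out, and with replicate 1 of both groups left out. DESeq2 called 7 members. Over all genes edgeR called 1340 and DESeq2 2621. Scaling moved the median of all genes by no more than 0.01. With 1 library left out the member median ran from 0.19 (without TGFalpha replicate 1) to 0.51, and it was 0.25 without control replicate 1 and TGFalpha replicate 1 together. Same-numbered libraries did not all deviate together (correlations 0.44, -0.08 and 0.26). With 3 libraries per group these values cannot decide whether the numbers mark a pairing. With the replicate block no member passed and the median was 0.41. In that fit 33 cytosolic ribosomal and 7 oxidative phosphorylation genes rose, against 25 and 2 without the block. Cytosolic ribosomal genes that rose numbered 56 by DESeq2, 1 at an adjusted p of 0.01, 4 without replicate 1 of both groups and 0 to 24 with 1 library left out. Oxidative phosphorylation genes that rose numbered 10 by DESeq2, 0 at 0.01, 0 without replicate 1 of both groups and 0 to 3 with 1 left out. In the smaller mitochondrial lists the count was 6 by DESeq2, 2 by limma-voom, 0 with size factors of DESeq2, library totals, TMM without the 20 most abundant genes, no filter, an adjusted p of 0.01 or without replicate 1 of both groups, and 0 to 1 with 1 left out. The causes were not tested.

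Signs turned for some members, none past a threshold. Mrpl1 was at 0.00 with size factors of DESeq2 and in DESeq2. Without replicate 1 of both groups Mrpl40 was at -0.02, Mrpl48 at -0.07, Mrps36 at 0.03 and Mrps5 at -0.12. With 1 library left out values ran from -0.20 to 0.18 for Mrpl1, -0.49 to 0.14 for Mrpl14, -0.08 to 0.04 for Mrpl27, -0.01 to 0.37 for Mrpl3, -0.11 to 0.25 for Mrpl36, -0.03 to 0.31 for Mrpl40, -0.10 to 0.32 for Mrpl48, -0.38 to 0.22 for Mrps36 and -0.37 to 0.10 for Mrps9. Chosen after their values were seen, Mrpl41 went from 0.31 to -0.13 without TGFalpha replicate 1 and to -0.19 without replicate 1 of both groups, and Mrpl55 from 0.53 to -0.09 without the latter. Mrpl18 and Mrps28 also turned without TGFalpha replicate 1 (-0.01 and -0.03), and Mrps14, Mrps17 and Mrps28 without control replicate 2 (-0.03, -0.04 and -0.07). The median SE per member was 0.241. How far depth limits it was not tested.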
